A study of Danio rerio with 3 samples.

Results

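The livers of zebrafish larvae that received the high-cholesterol diet together with berberine were set against the livers of larvae on the control diet, across every gene that could be measured in either. Each group had 1 Agilent single-colour array of RNA labelled liver, at 15 days post-fertilization (dpf). The BBR larvae received AP100 feed, 180 mg for each 100 fish a day, with 4% cholesterol and 5 μM berberine. The control larvae received 30 mg of AP100 for each 100 fish a day, with no added cholesterol and no berberine. All larvae were of the AB strain and received their diet for 10 days from 5 dpf. A further array, HCD, held larvae on the same 180 mg of AP100 with 4% cholesterol but without berberine, and it took no part in the choice of genes. A gene was counted if the probe that represents it was well above background on the BBR or the control array and was marked as an outlier on neither. This kept 25530 of the 28287 genes on the array, of which 11922 carry a gene symbol. The amount of feed, the cholesterol and the berberine all differ between BBR and control, so their parts in a difference cannot be told apart. The number of larvae behind each array and the vehicle of berberine were not given in the sources used here.

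BBR and control shared slide 1 and HCD was alone on slide 2, so a difference of HCD from either cannot be told apart from a difference of slides. Of the spots, 92.3% were well above background for BBR, 88.5% for HCD and 89.9% for control, and none was saturated. The scanner software marked 20 spots as outliers on BBR, 1665 on HCD and 1510 on control. Of 10 spike-in probes printed in 32 spots each, 8 were detected on BBR and control, and their log2 differences BBR minus control lay between -0.02 and 0.23. Those of HCD minus control lay between -0.96 and 0.22, with the lowest among the dimmer spike-ins. With 1 array a group there is no replicate error and no test across samples. The precision is therefore that of the hybridization alone. Probes printed in several spots had a standard deviation of 0.09 log2 units between spots on BBR and 0.18 on control, and different probes of 1 gene had a standard deviation of 0.29 in their log2 difference.

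Berberine is a plant alkaloid that has long been given for infections of the gut and is studied as a lipid-lowering compound. The liver handles cholesterol by packing it into lipoproteins and by turning it into bile acids, and it makes most of the complement and clotting proteins of blood. It also clears foreign compounds, through cytochrome P450 enzymes that receptors such as the aryl hydrocarbon receptor (AhR) control. Resident macrophages sit in its sinusoids and answer microbes, lipids and tissue damage with cytokines, nitric oxide and itaconate.

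Of the 25530 genes, 1017 (3.98%) were at least 2-fold higher in BBR than in control and 325 (1.27%) were at least 2-fold lower, so that 5.26% passed 2-fold in either direction. Thus 75.8% of the genes past 2-fold were higher in BBR. The imbalance grew with the size of the difference, with 175 genes higher and 28 lower by at least 4-fold, and 43 higher and 2 lower by at least 8-fold. The median over all genes was -0.02 log2 units, and 90% of genes lay between the 5th percentile of -0.65 and the 95th percentile of 0.89. Among genes with a symbol, 2.63% were at least 2-fold higher and 1.01% at least 2-fold lower, and these shares are the background for the gene lists. Under another background correction, normexp on the spot and local background signals, 589 genes were at least 2-fold higher and 144 lower. In equal bins of genes by signal, the median difference stayed between -0.07 and 0.02, but the counts depended on signal. The dimmest bin held 117 genes at least 2-fold higher and 102 lower, with a standard deviation of 0.61 log2 units. In the brightest bin 38 were higher and 8 lower, with a standard deviation of 0.35.

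**Figure D1:**
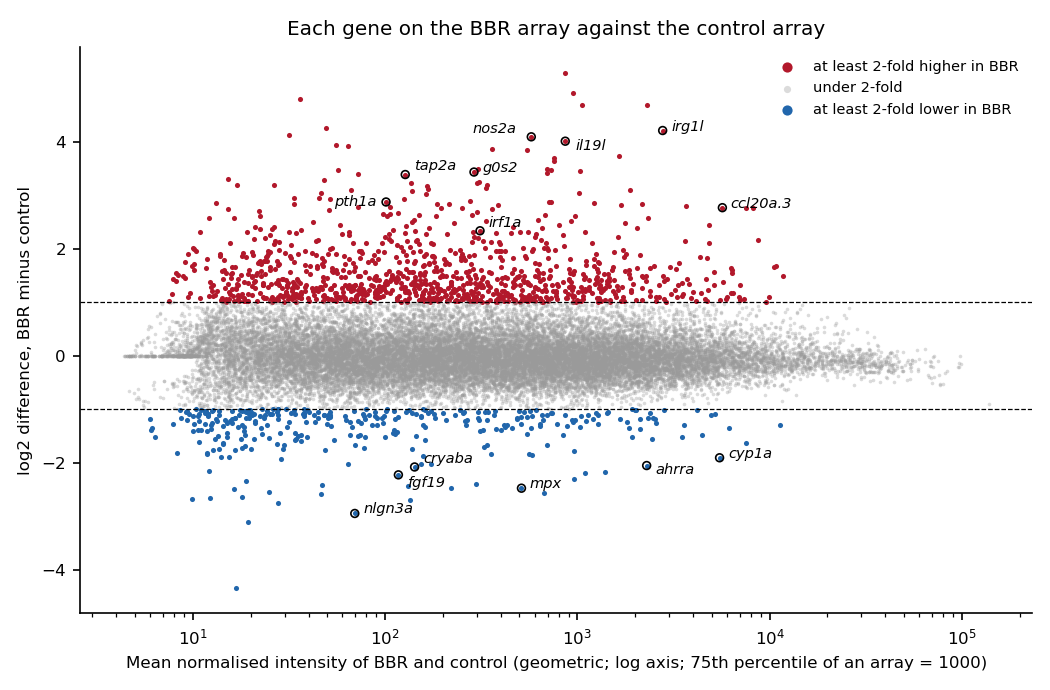
The log2 difference BBR minus control of each of the 25530 genes is plotted against its mean normalised intensity on the 2 arrays, on a log axis where the 75th percentile of an array is 1000. Dashed lines mark 2-fold, with 1017 genes above and 325 below, circles mark the labelled genes, and genes measured on 1 array only are drawn at their bound.

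A second probe of the same gene, which took no part in the call, gave another reading of the same 2 RNA samples. Of 221 genes at least 2-fold higher in BBR that had one, 202 were higher by the second probe too, 119 of them at least 2-fold. Of 60 genes at least 2-fold lower, 55 were lower by the second probe, 30 of them at least 2-fold. Over all 8589 genes with 2 probes, 3.14% of second probes were at least 2-fold higher and 1.13% at least 2-fold lower. A further count took only genes with a symbol and several unmarked probes, all well above background on both arrays. Among these, every probe passed 2-fold the same way in 68 higher and 19 lower genes.

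**Figure D2:**
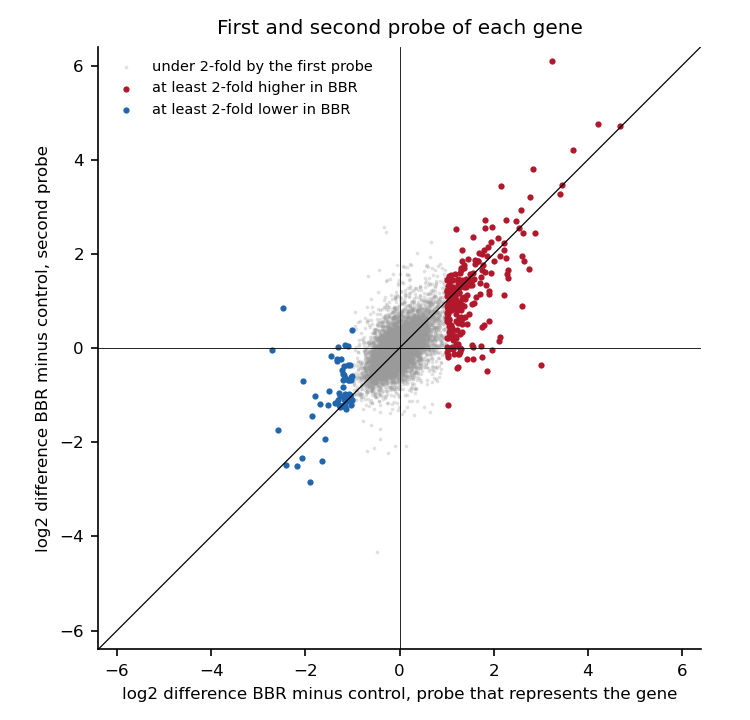
For 8589 genes with 2 probes well above background on BBR and control, the log2 difference BBR minus control by the second probe (vertical axis) is plotted against that by the probe that represents the gene (horizontal axis), with the line of equality. Most of the 221 higher genes (red) lie above 0 and most of the 60 lower genes (blue) lie below 0 on the vertical axis.

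Among genes with a symbol, immune genes headed the list of differences. Only 12 of the 43 genes at least 8-fold higher in BBR carry a symbol, so most of the largest differences are not described. Below, a level is the normalised intensity, on a scale where the 75th percentile of an array is 1000, and a difference is log2 of BBR minus log2 of control. Irg1l, a homologue of the mammalian enzyme that makes itaconate, had a level of 11944 in BBR, 12535 in HCD and 647 in control, which is 18.5-fold higher in BBR than in control. Its second probe gave a difference of 4.76. Nos2a, the inducible nitric oxide synthase, had levels of 2377 in BBR, 3607 in HCD and 139.7 in control, a difference of 4.09 by its brightest probe. Its 2 other probes were dim and not well above background in control, and gave differences of at least 0.69 and at least 1.85. Noxo1a, which organizes an epithelial NADPH oxidase, had levels of 1368 in BBR, 1703 in HCD and 93.8 in control, and its 2 other probes, again not well above background in control, gave differences of at least 2.68 and at least 2.81. On all these probes BBR lay above control, and the HCD levels of the brightest probes lay closer to BBR than to control.

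Cytokines of the interleukin 10 family stood beside them. Il19l had levels of 3471 in BBR, 5944 in HCD and 216 in control, a difference of 4.01. Il26 had levels of 189.9 in BBR, 82.0 in HCD and 17.2 in control, a difference of 3.46. Each rests on 1 probe. Tnfrsf9a, a costimulatory receptor of the tumour necrosis factor family, had levels of 5511 in BBR, 6561 in HCD and 645 in control. Ifng1r, a relative of interferon gamma, had 93.5 in BBR, 61.8 in HCD and 12 in control. Pglyrp6, a peptidoglycan recognition protein that binds bacterial cell walls, had 1925 in BBR, 574 in HCD and 262 in control. For il26, ifng1r and pglyrp6 the BBR array was the highest of the 3, and for il19l and tnfrsf9a the HCD array was.

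Further genes among the 15 largest differences with a symbol follow, and tap2a and gig2i are described with their lists. G0s2, which in mammals inhibits the main triglyceride lipase, had levels of 952 in BBR, 2013 in HCD and 88.3 in control. Oxgr1a.1, a receptor of 2-oxoglutarate, had 195 in BBR, 262 in HCD and 22.8 in control. Pth1a, a parathyroid hormone that controls calcium, had 274 in BBR, 31.4 in HCD and 37.4 in control, and its second probe gave a difference of 2.44 against 2.87. Pth1a was thus high in BBR alone, whereas g0s2 and oxgr1a.1 were highest in HCD. Bmp7a, a bone morphogenetic protein, had 344 in BBR and 45.4 in control, with its HCD spot marked as an outlier. Mpeg1.3, a relative of the macrophage perforin, had 466 in BBR and 57.8 in control, but its second probe gave a difference of -0.37. Only 4 of the 10 genes that were at least 16-fold higher carry a symbol.

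Other genes were named because every probe agreed at 2-fold or more. Ccl20a.3, a chemokine, had levels of 14817 in BBR, 12514 in HCD and 2180.3 in control, a difference of 2.76 with 3.21 by the second probe. Sult5a1, a sulfotransferase, had 4187 in BBR, 7293 in HCD and 748 in control. Batf3, a transcription factor that dendritic cells of mammals need, had 819 in BBR, 955 in HCD and 193 in control. Ehf, an epithelial transcription factor, had 1841 in BBR, 2219 in HCD and 385 in control. Ogfr2, plekhs1.2, plekhs1.3 and the connexin gene gjb9b completed these, with differences of 2.27 for ogfr2, 2.63 for plekhs1.2, 1.93 for plekhs1.3 and 2.13 for gjb9b. All 8 were higher in BBR than in control by each of their probes.

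Of the genes measured on 1 array only, 94 were at least 2-fold higher in BBR and 59 at least 2-fold lower by their bound. C1r, a protease that starts the classical complement pathway, was at least 5.92-fold higher in BBR, where it had a level of 63.2, and was not well above background in control. Casp23, a caspase, was at least 6.47-fold higher, and its second probe gave a difference of at least 1.97. Btg4 was at least 4.97-fold higher and kiss1ra, a kisspeptin receptor, at least 3.85-fold. Mhc2d8.35b2, an MHC class II gene, had the largest bound, at least 17.5-fold, but its other probe gave -0.23, so the probes of this gene disagree. The largest bounds in the other direction were those of the ephrin efnb1, at least 5.61-fold lower in BBR, then or30by3, ovch1, fgf7 and taar13d, at least 2.64-fold to 3.23-fold lower. Of these, ovch1 had a difference of 0.39 with spots marked as outliers kept.

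Gene lists were compared with the median of all genes. A list was called higher or lower if its median lay at least 0.25 log2 units from that median and at least 2 of 3 members lay on the same side. By this rule, which is a description and no test, 12 lists were higher in BBR, 3 were lower, and the other 44 of 59 were not called.

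**Figure D3:**
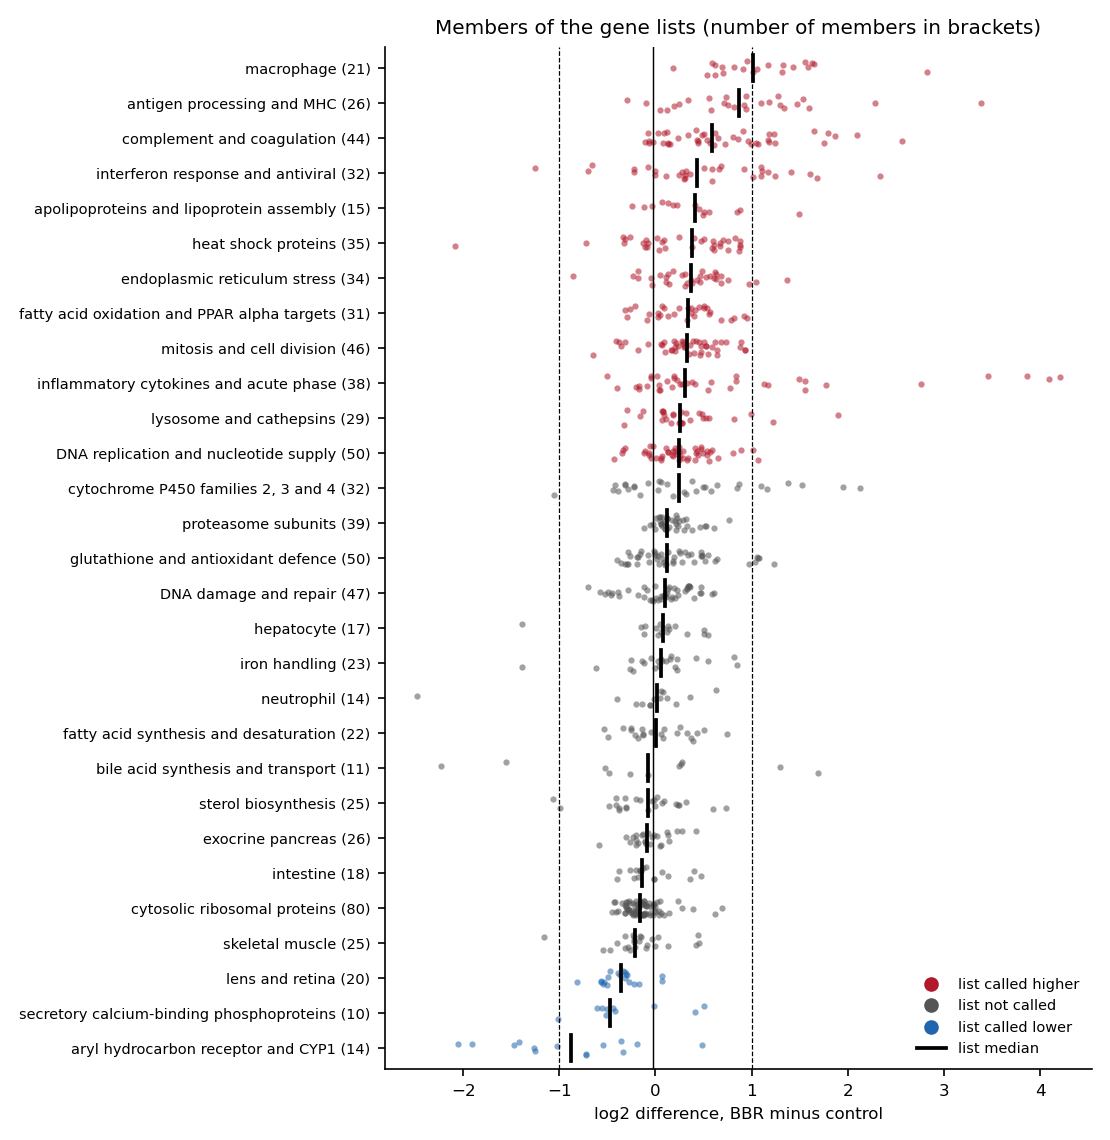
Each point is a gene, placed by its log2 difference BBR minus control, in the 15 lists that were called and 14 that were not, with the number of members in brackets. Thick bars are list medians, the thin line is the median of all genes at -0.02, and dashed lines mark 2-fold. The median of the macrophage markers, at 1.01, is the furthest to the right and that of the AhR genes, at -0.87, the furthest to the left.

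Markers of macrophages had the highest median of all lists, 1.01. All 21 lay above the median of all genes, and 11 were at least 2-fold higher and 0 lower, where 2.63% of genes with a symbol were higher and 1.01% lower (3.98% and 1.27% of all genes). Mpeg1.1, the macrophage perforin, had levels of 1555 in BBR, 1135 in HCD and 746 in control, and its second probe gave 1.00 against 1.06. Mpeg1.2 had 4497 in BBR, 2401 in HCD and 636 in control. C1qa, a chain of the first complement component that macrophages make, had 709 in BBR, 474 in HCD and 226 in control. Mfap4.1 had 5719 in BBR, 4195 in HCD and 1853 in control, with 1.07 and 1.46 by its other probes. Of these 4 genes each was highest in BBR and lowest in control.

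Irf8, the transcription factor that macrophages of zebrafish depend on, had levels of 474 in BBR, 750.1 in HCD and 158 in control. Lcp1, the actin-bundling protein L-plastin of all white blood cells, had 6702 in BBR, 5089 in HCD and 3319 in control, a difference of 1.01 with 0.75 by its second probe. Csf1ra, the receptor for the growth factor of macrophages, had 70.9 in BBR, 45.0 in HCD and 37.7 in control, a difference of 0.91, short of 2-fold. Second probes, available for 12 markers, had a median of 0.97, and all 12 were above the median of all genes. In RNA from a whole tissue, more cells of a type and more RNA in each cell cannot be told apart. The paper counted liver macrophages by an antibody to L-plastin. It reports more of them in HCD than in control, and that berberine reversed this. Here lcp1 RNA was higher in BBR than in HCD, a difference that cannot be told apart from that of their slides. Labelled cells and RNA levels are unlike measures, and how they relate was not tested.

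Markers of other white blood cells gave other values. The 14 neutrophil markers had a median of 0.01, with 0 at least 2-fold higher. Second probes, available for 6 of them, had a median of 0.56, with 4 above 0 and 2 below, so the 2 readings differ. Mpx, the myeloperoxidase of neutrophils, had levels of 217 in BBR and 1209 in control by its brightest probe, a difference of -2.48, but its 3 other probes gave 0.27 to 1.06, so the probes of mpx disagree in direction, and the HCD spot of the brightest was marked as an outlier. Lyz, lysozyme, had 5593 in BBR, 5859 in HCD and 4347 in control. The 10 lymphocyte markers had a median of 0.09, and nkl.4, a relative of the granulysin of cytotoxic cells, was the only one past 2-fold, with levels of 294 in BBR, 269 in HCD and 46.6 in control. The summed level of the macrophage markers was 67479 in BBR, 62891 in HCD and 35956 in control, that of the neutrophil markers 61967 in BBR, 55714 in HCD and 63894 in control. The macrophage sum was higher in BBR together with the immune gene groups described next, whereas the neutrophil sum was not. The neutrophil sum holds the brightest mpx probe, which its 3 other probes oppose. The neutrophil list as written also shares the gene cpa5 with the exocrine pancreas list. For both reasons the neutrophil sum is a weak point of comparison. The part of macrophages or neutrophils in those groups was not tested.

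Genes of antigen processing and the major histocompatibility complex had the next highest median, 0.87 over 26 genes, of which 24 lay above the median of all genes and 10 were at least 2-fold higher and 0 lower. Tap2a, a subunit of the pump that carries peptides to MHC class I, had levels of 411 in BBR, 100.1 in HCD and 39.4 in control, a difference of 3.38 with at least 2.4 by its second probe (dim in control). The interferon-inducible proteasome subunits that cut these peptides were higher as well. Psmb13a had 837 in BBR, 635 in HCD and 172 in control. Psmb12 had 1620.5 in BBR, 1829 in HCD and 560.3 in control. Psmb9a had 2108 in BBR, 2677 in HCD and 762 in control. B2m, the light chain of class I, had 10129 in BBR, 8095 in HCD and 4726 in control, and its other probes gave 1.49 and 1.56 against 1.1.

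Class II genes and the ordinary proteasome gave other values. Cd74a, the class II invariant chain, had levels of 2583 in BBR, 2922 in HCD and 2376 in control, a difference of 0.12. Mhc2dgb was at least 3.03-fold higher in BBR by its brightest probe, but its other probe gave a difference of -0.30, so its probes disagree. The 39 subunits of the ordinary proteasome had a median of 0.12, with 36 above the median of all genes but 0 past 2-fold in either direction.

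The list of inflammatory cytokines and acute phase genes, which also held genes of itaconate, nitric oxide and an oxidase, had a median of 0.30 over 38 genes. Of these, 11 were at least 2-fold higher and 0 lower. The 4 largest were irg1l, nos2a, noxo1a and il26, given above, and of these 4 only il26 is a cytokine. Saa, the serum amyloid A of the acute phase, had levels of 356 in BBR, 646 in HCD and 163 in control, and its second probe gave 1.2 against 1.13. The textbook starters of inflammation did not pass 2-fold by their brightest probes. Il1b had 217 in BBR, 313 in HCD and 145 in control, a difference of 0.58, although its second probe gave 1.77. Tnfa had 3117 in BBR, 2603 in HCD and 3072 in control, a difference of 0.02. Its paralogue tnfb, named after its values were seen, had 779 in BBR, 1062 in HCD and 266 in control, with a difference of 1.55 and 2.36 by the second probe. Il22, a further member of the interleukin 10 family also named after its values were seen, had 88.6 in BBR, 210.3 in HCD and 26.0 in control. The other 27 genes of the list, tnfa and il1b among them, were short of 2-fold.

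Genes of the interferon response had a median of 0.43 over 32 genes, with 10 at least 2-fold higher and 1 lower. Irf1a, a transcription factor that interferon gamma induces, had levels of 699.9 in BBR, 706 in HCD and 139 in control. Irf7, which drives type I interferons, had 2170.2 in BBR, 1311 in HCD and 815 in control, and its second probe gave 1.47 against 1.41. Mxa, an antiviral GTPase, had 225 in BBR, 78.2 in HCD and 73.6 in control. Gig2i, outside the list but of a fish family of virus-induced genes, had 5967 in BBR, 1923 in HCD and 452 in control, a difference of 3.72, and its relative gig2p had a difference of 1.68, or 0.90 under normexp. Ifnphi1, a zebrafish type I interferon, had 267 in BBR, 209.9 in HCD and 113 in control. All of these were highest in BBR except irf1a, which had nearly the same level in HCD as in BBR.

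Isg15, rsad2 and ifit8, also interferon-stimulated genes, were not higher by 2-fold. Isg15, the ubiquitin-like protein, had levels of 3977 in BBR, 713 in HCD and 3105 in control, a difference of 0.36. Rsad2, viperin, had 59.7 in BBR and 94.7 in control, a difference of -0.66, and was not well above background in HCD. Ifit8, the 1 member at least 2-fold lower, had 48.5 in BBR and 116 in control and was not well above background in HCD either. It was named after its values were seen. So was ifi27.6, of an interferon-induced family but outside the list. Ifi27.6 had levels of 2065 in BBR, 1393 in HCD and 5962 in control, a difference of -1.53 on 1 probe.

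**Figure D4:**
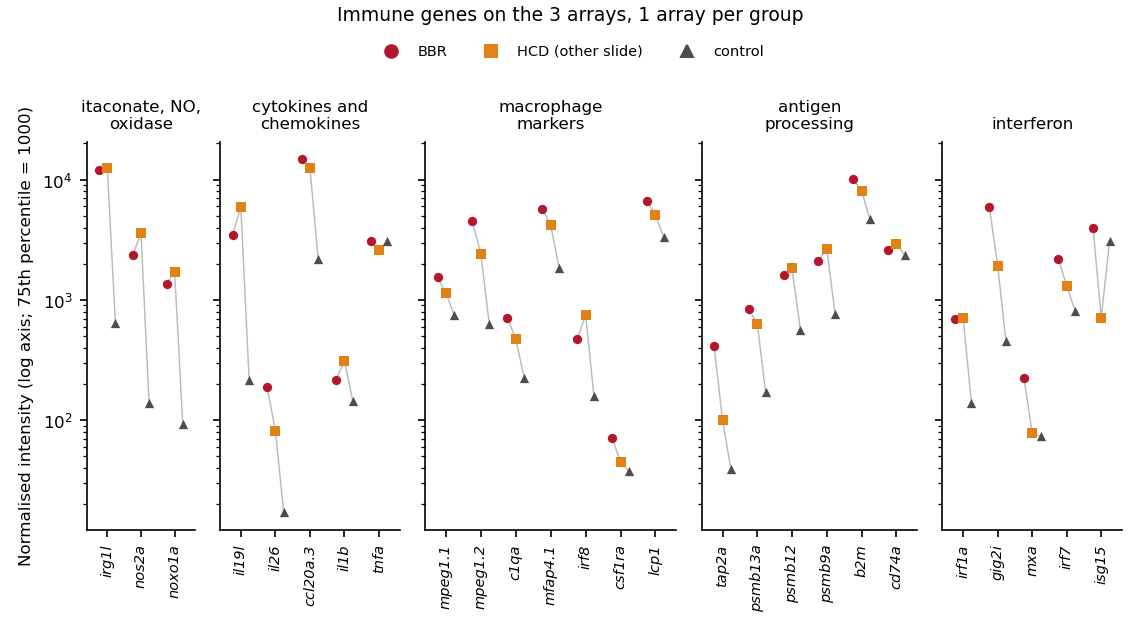
Normalised intensity (log axis, 75th percentile of an array at 1000) of 26 immune genes on the BBR, HCD and control arrays, 1 array per group, joined by grey lines within a gene. The control array is the lowest for irg1l, nos2a, noxo1a and for the macrophage and proteasome genes, whereas tnfa, cd74a and isg15 differ little between BBR and control.

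Complement and coagulation genes, which the liver makes for blood, had a median of 0.59 over 44 genes, of which 13 were at least 2-fold higher and 0 lower. Complement genes were among those past 2-fold, c1r, given above, with them. C1s.1, the protease that works with c1r, had levels of 60.7 in BBR, 55.3 in HCD and 16.7 in control, a difference of 1.86 that became 0.77 under normexp. C3a.1, the central component, had 10662 in BBR and 5102 in control, with a difference of 1.06 and 1.11 to 1.18 by its other probes, and its HCD spot was marked as an outlier. Both lay higher in BBR than in control.

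Clotting proteins were mixed. The factors f9a and f7i and the anticoagulant pros1, named after their values were seen, had differences of 1.18 for f9a, 1.24 for f7i and 1.23 for pros1, with second probes at 1.08 for f9a, 0.89 for f7i and -0.40 for pros1. F2, prothrombin, had levels of 4576 in BBR, 2935 in HCD and 3397 in control, a difference of 0.43, with 0.66 to 1.1 by its 4 other probes. Fga, a fibrinogen chain, had 6488 in BBR, 7305 in HCD and 6998 in control, a difference of -0.11. Hepatocyte markers as a whole had a median of 0.08 over 17 genes and a summed level of 219312 in BBR, 210778 in HCD and 206473 in control. Of the 17, 13 lay above the median of all genes. Second probes, available for 11 of them, had a higher median of 0.31, with 8 above 0 and 3 below.

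The AhR and its CYP1 targets formed the list that was lowest in BBR. The receptor binds flat aromatic compounds and induces cytochrome P450 enzymes of family 1, along with the AhR repressors that switch it off again. The median of the 14 genes was -0.87, 13 lay below the median of all genes, and 7 were at least 2-fold lower and 0 higher. Cyp1a, the leading target, had levels of 2836 in BBR, 7259 in HCD and 10651 in control, which is 3.76-fold lower in BBR than in control. Its 2 other probes gave -2.84 and -2.83 against -1.91. Cyp1c1 had 1648 in BBR, 2226 in HCD and 3963 in control, with -1.93 and -1.01 by its other probes. Cyp1b1 had 349 in BBR and 712 in control, with -1.12 and -1.08 by its other probes, and its HCD spot was marked as an outlier. BBR was the lowest array for cyp1a and cyp1c1, with HCD between BBR and control.

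The repressors lay in the same order by their brightest probes. Ahrra had levels of 1126 in BBR, 1775 in HCD and 4677 in control, although its second probe gave -0.69 against -2.05. Ahrrb was dim, with 13.6 in BBR, 15.2 in HCD and 32.6 in control, and both other probes were at least 2-fold lower in BBR. Foxq1a and foxq1b, transcription factor genes that AhR activation induces in zebrafish embryos, gave differences of -1.42 for foxq1a and -1.47 for foxq1b. Ahr2, the main receptor of zebrafish, had 3955 in BBR, 5709 in HCD and 6520.1 in control, a difference of -0.72, and its 4 other probes lay between -0.67 and -0.48. Second probes of the list, available for 8 genes, had a median of -0.85, and all 8 lay below 0.

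P450 enzymes of families 2, 3 and 4, which other receptors control, were not called as a group. Their median was 0.24 over 32 genes, with 6 at least 2-fold higher and 1 lower. Cyp2k6 had levels of 58.7 in BBR, 17.7 in HCD and 13.5 in control. Cyp2aa7 had 738 in BBR, 273 in HCD and 191 in control. Cyp2aa8 had 1819 in BBR, 1180.3 in HCD and 630.4 in control, and cyp2aa9 184 in BBR, 84.4 in HCD and 70.8 in control. All 4 were highest in BBR, and each rests on 1 probe that met the filter. With spots marked as outliers kept, the difference of cyp2aa9 became 0.55 against 1.38, short of 2-fold. Under normexp the difference of cyp2k6 became 0.75 against 2.13 and that of cyp2aa9 0.78 against 1.38, both short of 2-fold. The 3 cyp2aa genes are close relatives, and their probes may read each other's RNA. Cyp3a65, the main family 3 enzyme of zebrafish liver and intestine, had 7220.0 in BBR, 6677 in HCD and 7065 in control, a difference of 0.03. Cyp2u1, the member that was lower, had a difference of -1.05 and was named after its values were seen.

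Bile acid genes differed in both directions, with a list median of -0.08 over 11 genes, 2 at least 2-fold higher and 2 lower. Both genes past 2-fold higher make bile acids. Cyp7a1, the rate-limiting enzyme of bile acid synthesis, had levels of 285 in BBR, 99.8 in HCD and 88.2 in control, which is 3.23-fold higher in BBR than in control. Cyp8b1.1, the sterol 12-hydroxylase, had 477 in BBR, 516 in HCD and 194 in control, a difference of 1.3, or 0.96 under normexp. Both genes past 2-fold lower hold that synthesis back. Fgf19, the hormone that bile acids induce to repress cyp7a1, had 54.2 in BBR, 482 in HCD and 254 in control, 4.69-fold lower in BBR. Nr0b2a, the repressor SHP, had 1426 in BBR, 2053 in HCD and 4174 in control. For fgf19 the HCD level was above both others, and for cyp7a1 it was close to control.

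The rest of the pathway was short of 2-fold. Nr1h4, the bile acid receptor FXR, had levels of 232 in BBR, 273 in HCD and 278 in control. Fgfr4, the receptor of fgf19, had a difference of -0.49, and slc10a2, which takes bile acids up in the gut, one of -0.53. The 4 genes past 2-fold rest on 1 probe each.

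Genes of lipid storage differed one by one. Plin2, which coats lipid droplets, had levels of 355 in BBR, 739 in HCD and 138 in control, with 1.70 by its second probe against 1.37. Together with g0s2, given above, it was highest in HCD and lowest in control. Lpin1a, a phosphatidate phosphatase of triglyceride synthesis, had 1559 in BBR, 1022 in HCD and 3516 in control, and both other probes were at least 2-fold lower in BBR. Dgat2, which makes triglyceride, had 1454 in BBR, 1000.5 in HCD and 1483 in control, a difference of -0.03. Angptl4, an inhibitor of lipoprotein lipase, had 2254 in BBR, 1472 in HCD and 894 in control, a difference of 1.33 with 0.92 by its second probe. Creb3l3a, a liver transcription factor that fasting and lipids activate in mammals, had 500.0 in BBR, 506 in HCD and 164 in control.

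Genes of fatty acid oxidation shifted together by a small amount. The 31 genes had a median of 0.34, 25 lay above the median of all genes, and 0 passed 2-fold. Acadm, the medium-chain acyl-CoA dehydrogenase, had levels of 7031 in BBR and 4965 in control, with its HCD spot marked as an outlier. Its difference was 0.50, but its 3 other probes gave only 0.16 to 0.20. Cpt2, which completes the entry of fatty acids into mitochondria, had 2214 in BBR, 2902 in HCD and 1493 in control. Cpt1aa, the controlling step of that entry, had 149 in BBR, 122 in HCD and 118 in control. The receptor genes that drive the pathway lay on the other side, at -0.31 for pparaa and -0.30 for pparab. Synthesis was not shifted, with a median of 0.01 over 22 genes and 0 past 2-fold, and with differences of -0.13 for the regulator srebf1, -0.04 for acaca (0.05 and 0.67 by its other probes) and 0.05 for the desaturase scd.

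Apolipoproteins and the genes that load lipoproteins had a median of 0.42 over 15 genes, of which 12 lay above the median of all genes and 1 passed 2-fold. That was apoc4, with levels of 1006 in BBR, 1379 in HCD and 357 in control. Mttp, which loads lipid onto nascent lipoproteins, had 1212 in BBR, 1043 in HCD and 674 in control, a difference of 0.85, but its 3 other probes gave 0.05 to 0.44. Second probes of 7 members had a median of only 0.05. Apoa1a, the main protein of high-density lipoprotein, had a difference of -0.12, and apoeb one of -0.24.

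By their brightest probes, enzymes of sterol synthesis lay close to control as a group. Their median was -0.08 over 25 genes, with 0 at least 2-fold higher and 1 lower. Second probes, available for 12 of the genes, had a lower median of -0.30, with 2 above 0 and 10 below. The lower gene was insig1, which holds back cholesterol synthesis when sterols are plentiful and had levels of 861 in BBR, 799.9 in HCD and 1805 in control. Hmgcra, the controlling enzyme, had 568 in BBR, 1687 in HCD and 708 in control. Sqlea, squalene epoxidase, had 61.0 in BBR, 344 in HCD and 61.1 in control. By these probes both were highest in HCD. The 2 other probes of hmgcra gave -0.43 and 0.97 against -0.32, so its probes disagree. The regulator srebf2 had a difference of 0.22.

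The authors chose some genes for qRT-PCR, where they set BBR against HCD rather than against control. By the paper's account, the choice began from genes for which BBR and control both exceeded HCD by 2-fold, or both fell 2-fold short of it. Genes picked in this way need not differ between BBR and control, so the counts here are no check of the qRT-PCR. On the arrays, 2 of these 15 passed 2-fold between BBR and control. Ch25h, which makes 25-hydroxycholesterol, had levels of 393 in BBR, 1068 in HCD and 143 in control, a difference of 1.46 with 1.55 to 1.88 by its other probes. Tk1, a thymidine kinase, had 93.6 in BBR, 108 in HCD and 46.3 in control, a difference of 1.02, but of its other probes one gave -0.08 and one was not well above background in control and gave no fold. The other 13 genes were short of 2-fold. The lowest was isca1, an iron-sulphur assembly factor, with a difference of -0.62, and the highest was pif1, a DNA helicase that was not well above background in control and was at least 1.53-fold higher in BBR. Lpla, lipoprotein lipase, had 1533 in BBR, 912 in HCD and 2319 in control. The desaturase fads2 had a difference of 0.26, and the sterol enzymes msmo1 and mvda had 0.02 for msmo1 and 0.32 for mvda.

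**Figure D5:**
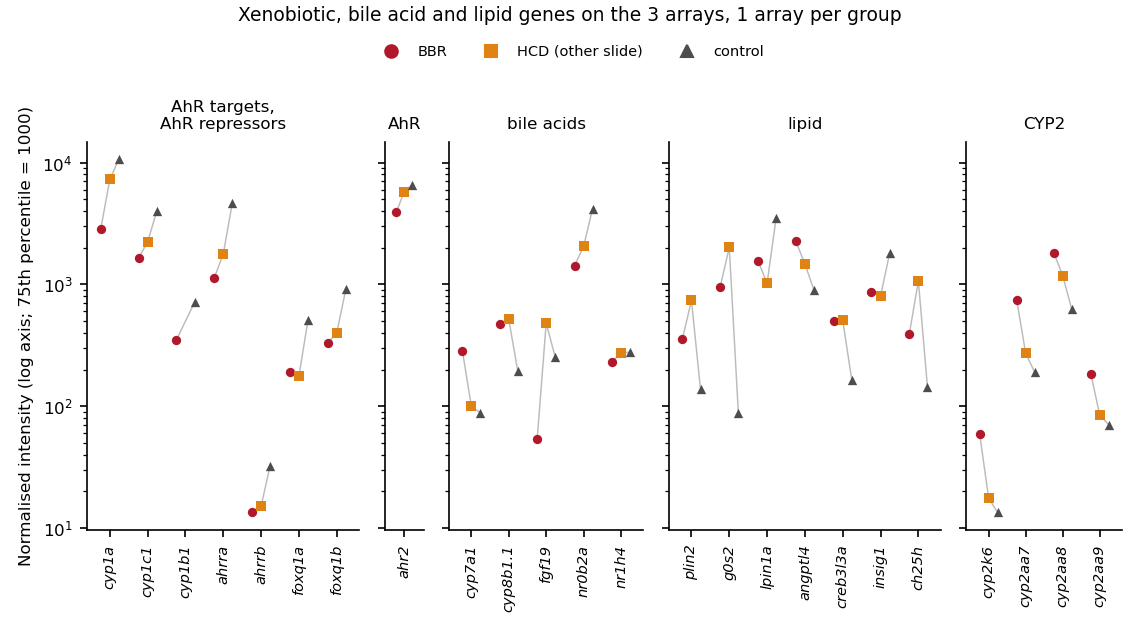
Normalised intensity (log axis, 75th percentile of an array at 1000) of 24 genes of foreign compounds, bile acids and lipids on the BBR, HCD and control arrays, 1 array per group, joined by grey lines within a gene. The 8 AhR genes are lower in BBR than in control, cyp7a1 and the CYP2 genes are higher in BBR than in control, and the HCD point of cyp1b1 is left out because its spot was marked as an outlier.

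Chaperone genes were higher in BBR as lists, most by less than 2-fold. The 34 genes of endoplasmic reticulum stress had a median of 0.37, with 28 above the median of all genes. Of them 2 (5.88%) were past 2-fold higher, beside 2.63% of genes with a symbol. Pdia4, a protein disulfide isomerase, had levels of 5615 in BBR, 5344 in HCD and 2179 in control, and its other probes gave 0.89 and 1.35 against 1.37, which became 0.79 under normexp. Dnajb9b had a difference of 1.04, with 0.47 by its second probe. Hspa5, the master chaperone BiP, had 10761 in BBR, 12238 in HCD and 8672 in control, a difference of 0.31, but its 5 other probes gave 0.55 to 1.8 with a median past 2-fold at 1.14. Xbp1, which turns the programme on, had a difference of 0.33, whereas ddit3, its death-promoting arm, had one of -0.05.

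Heat shock proteins had a median of 0.38 over 35 genes, with 24 above and 11 below the median of all genes, 0 at least 2-fold higher and 1 lower. Hsp70l had levels of 5195 in BBR, 2050.1 in HCD and 2938 in control. Hspd1, the mitochondrial chaperonin, had 3057 in BBR, 2284 in HCD and 1875 in control. Cryaba, a small heat shock protein of lens and muscle, was the member past 2-fold lower, with 69.2 in BBR, 201 in HCD and 293 in control, 4.23-fold lower in BBR, and -2.34 by its second probe.

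Antioxidant genes included 5 of 50 that were at least 2-fold higher and 0 lower, beside a median of 0.12. Gstp1.1, a glutathione transferase that the oxidant sensor Nrf2 induces, had levels of 2895 in BBR and 1235 in control, with its HCD spot marked as an outlier. Prdx1, a peroxidase, had 8582 in BBR, 8255 in HCD and 4099 in control, with 1.31 and 1.42 by its other probes. Hmox1a, which breaks down haem, had 1284 in BBR, 1709 in HCD and 611 in control, and its paralogue hmox1b had a difference of 1.03. Txnb, a thioredoxin, had a difference of 1.06. Among 38 immediate early genes, a list not called, 2 (5.26%) were at least 2-fold higher and 1 lower. Of all genes with a symbol, 2.63% were higher and 1.01% lower. Atf3, a stress-induced transcription factor, had 1402 in BBR, 1557 in HCD and 347 in control. Nab2, which restrains the early growth response factors, had 58.6 in BBR, 11.3 in HCD and 15.4 in control, a difference of 1.92 that became 0.81 under normexp. Klf2a, a factor of endothelium under flow, had 2650.2 in BBR, 3898 in HCD and 7433 in control, a difference of -1.49 with -0.90 by its second probe. Atf3 and nab2 were thus higher and klf2a lower in BBR than in control.

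Among 58 genes of amino acid breakdown, 3 (5.17%) were at least 2-fold higher and 0 lower. Of all genes with a symbol, 2.63% were higher and 1.01% lower, and this list was not called. Ass1 and asl rebuild arginine from citrulline, the by-product of nitric oxide synthesis. Ass1 had levels of 2282 in BBR and 931 in control, with 1.34 and 1.97 by its other probes and an outlier mark in HCD. Asl had 1011 in BBR, 1254 in HCD and 486 in control, a difference of 1.06 with 0.62 by its second probe. Ido1, which breaks down tryptophan and answers interferon gamma in mammals, had 105 in BBR, 133 in HCD and 44.7 in control, a difference of 1.23 that became 0.82 under normexp. Of 29 lysosomal genes, with a median of 0.25, ctsk and gla (6.90% of the list) were past 2-fold higher. Ctsk, a collagen-cutting cathepsin, had 3449.9 in BBR, 2014 in HCD and 924 in control, and 1.2 by its second probe.

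Genes of cell division were higher in BBR as a list, though short of 2-fold. The 46 genes of mitosis had a median of 0.33, with 39 above the median of all genes and 0 past 2-fold. Cdk1, the kinase that starts mitosis, had levels of 785 in BBR, 1153 in HCD and 412 in control. Mki67, the proliferation marker, had 1218 in BBR, 2643 in HCD and 843 in control, a difference of 0.53 with 0.15 to 2.13 by its 4 other probes. The 50 genes of DNA replication had a median of 0.24. Of them 2 (4%) were at least 2-fold higher, mcm3, whose difference was 1.06, and tk1, by 1 of its probes only. That share was near the 2.63% of genes with a symbol and the 3.98% of all genes. Second probes of 34 of the replication genes had a median of only 0.11, with 20 above 0 and 14 below 0. Pcna, the sliding clamp, had a difference of 0.01. The summed level of the mitosis genes was 22070.1 in BBR, 38000.0 in HCD and 18730.5 in control. The 47 genes of DNA damage and repair had a median of 0.10, and 0 passed 2-fold.

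Among the 15 genes with the largest negative differences were genes of synapse, skin and muscle. Nlgn3a, an adhesion protein of synapses, had levels of 25 in BBR, 20.6 in HCD and 193 in control, and sv2ca, of synaptic vesicles, had 10.3 in BBR, 14.9 in HCD and 60.6 in control. Each of these rests on 1 dim probe. Krt99, a keratin, had 129 in BBR, 296 in HCD and 682 in control, with -2.48 by its second probe. Rhcga, which moves ammonia out of skin and gill, had 516 in BBR, 878 in HCD and 2349 in control, with -2.51 and -2.32 by its other probes. Tnni2a.3, a troponin of fast muscle, had 308 in BBR, 1081 in HCD and 1109 in control. Prnpa, a prion protein, had 518 in BBR, 438 in HCD and 1792 in control, a difference of -1.79 with -1.02 by its second probe. Slc25a14 had a difference of -2.70 by its brightest probe but -0.04 by the other, and 0.20 with spots marked as outliers kept.

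Further genes that every probe placed at least 2-fold lower were the lens crystallins crygm6 and crygm7, the anion transporter slc26a6l1 and nbl1, an antagonist of bone morphogenetic proteins, with differences of -1.58 for crygm6, -1.28 for crygm7, -1.52 for slc26a6l1 and -1.2 for nbl1. Rab11fip4a and the potassium channels kcnj1a.3 and kcnq2a, on 1 probe each, had -2.02 for rab11fip4a, -1.76 for kcnj1a.3 and -1.74 for kcnq2a.

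Markers of tissues other than liver were well above background on these arrays. Prss1, a trypsin of the exocrine pancreas, had levels of 54859.9 in BBR, 55138 in HCD and 58792 in control, and fabp2 of intestine, mylpfa of fast muscle and krt4 of skin were also well above background in BBR and control. The summed level of 26 pancreas markers was 569884 in BBR, 525186 in HCD and 605404 in control, that of 25 skeletal muscle markers 548615 in BBR, 542710.0 in HCD and 622210.0 in control. The sum of 18 intestine markers was 145930.0 in BBR, 156376 in HCD and 150259 in control. Hepatocyte markers were present too, with levels of 25615 in BBR, 24302 in HCD and 25511 in control for fabp10a. Markers of other organs were thus measured beside those of hepatocytes in the RNA labelled liver, in BBR and control alike. These were not only neighbours of the liver. Markers of lens and retina summed to 219930 in BBR and 270621 in control. Those of hepatocytes summed to 219312 in BBR and 206473 in control. A difference in this RNA need not be one of liver cells.

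The 20 markers of lens and retina had a median of -0.35, with 18 below the median of all genes and 0 past 2-fold, and a summed level of 219930.0 in BBR, 227416 in HCD and 270621 in control. The 22 markers of neurons had a median of -0.27, just short of a call, with 20 below the median of all genes. Their summed level was 82114 in BBR, 92633 in HCD and 96051 in control. Gfap, of glia, had levels of 1688 in BBR, 2868 in HCD and 3822 in control, with -0.38 and -1.05 by its other probes. Gfap is also on the list of stellate cells and fibroblasts, which had a median of -0.18 over 19 genes and was not called. The 10 secretory calcium-binding phosphoproteins of teeth and skeleton had a median of -0.47, with 1 at least 2-fold lower, scpp5, at -1.01, but enam, enamelin, at 0.51. The sums of the eye, brain and muscle markers were lower in BBR together with these genes, but a lower sum was not particular to them. The sum of biliary markers was 37714 in BBR and 42847 in control, and that of pancreas markers was lower in BBR too. The sums of hepatocyte and erythrocyte markers were higher in BBR. Second probes of the pancreas list, however, had a median of 0.08, with 9 above 0 and 5 below. In the neuron list they had a median of -0.40, with all 15 below 0. For lens and retina it was -0.30, with 11 of 12 below 0. For muscle it was -0.22, with 16 of 19 below 0, and for biliary markers -0.24, with 6 of 9 below 0. The part of any such tissue in the differences was not tested.

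Of the islet hormones, ins, insulin, had levels of 2629 in BBR, 3317 in HCD and 4902 in control, a difference of -0.90 with -0.91 by its second probe. Sst2, a somatostatin, had 3351 in BBR, 1547 in HCD and 1400.5 in control, a difference of 1.26 with 1.29 by its second probe. The 12 islet markers together had a median of -0.19. Ins was thus lowest and sst2 highest in BBR. The second insulin gene, insb, named after its values were seen, had levels of 61.0 in BBR, 32.5 in HCD and 24.4 in control, a difference of 1.32 with 1.44 by its second probe, so the 2 insulin genes differed in opposite directions.

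The list of iron handling had a median of 0.05 over 23 genes, with 0 at least 2-fold higher and 1 lower. That gene, tfr2, a transferrin receptor of hepatocytes, had levels of 68.7 in BBR, 109 in HCD and 179 in control by its brightest probe, while its other probe was not well above background in control and gave no fold. The list leaves out the ferritin gene fthl28, named after its values were seen. Fthl28 had 14587 in BBR, 7498 in HCD and 6841 in control, a difference of 1.09 on 1 probe. Hmox1a and hmox1b, which also passed 2-fold higher, were counted with the antioxidant genes. Ribosomal proteins, at a median of -0.16 over 80 genes, and the respiratory chain, at -0.08 over 84, held 0 genes past 2-fold.

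Single genes of other lists passed 2-fold. Sesn2, a stress sensor and p53 target, had levels of 574 in BBR, 649 in HCD and 246 in control, but its other probe gave a difference of 0.05 against 1.22. Tp53i11b of the same list had 43 in BBR, 41.7 in HCD and 101 in control, with -0.65 to -0.23 by its 3 other probes against -1.23. Of 39 genes of retinoid metabolism, cyp26a1, which breaks down retinoic acid, had a difference of -1.03, with -0.67 by its other probe, and retsatl, a relative of retinol saturase, one of -1.06. Of 31 liver transcription factors, creb3l3a and hnf4b were at least 2-fold higher and nr0b2a at least 2-fold lower, and hnf4b had a difference of 1.05, with 0.34 by its other probe. Among markers of other tissues, anxa1b of epithelium had a difference of 1.44, krt93 of skin -1.13, pvalb3 of muscle -1.16, slc26a1 of kidney 1.21, epyc of cartilage -1.19 and slc4a1a of erythrocytes 1.00, the last with 0.57 by its other probe. Each of these lists was not called, with at most 2 members past 2-fold in 1 direction. Of all genes with a symbol, 2.63% were at least 2-fold higher and 1.01% at least 2-fold lower.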

How the data were processed

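Total RNA labelled as zebrafish liver was hybridised by the authors in Cy3 to Agilent zebrafish arrays, 1 array each for BBR, HCD and control. The deposited scanner files hold the processed signal, an intensity that Agilent Feature Extraction had already corrected for background. The deposited value table holds log2 values, and after removal of each array's offset they equal the scanner values within 0.002, so that it was used as an alternative only. Its column medians are -2.21 for BBR, -2.34 for HCD and -2.25 for control.

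Control spots were left out, which kept 43603 probes, and log2 intensity was taken minus each array's 75th percentile. A probe entered if it was well above background on the BBR or the control array and was not marked as an outlier on either (39043 probes). Accessions that matched the same annotated gene were merged into 1 gene, and an unmatched accession counted as a gene of its own. Each gene was represented by its brightest probe on average over BBR and control. A probe not well above background on 1 of these arrays gave a bound, taken against a floor, the dimmest signal called well above background on that array, or against its own signal where that was brighter. No test across genes was possible with 1 array a group, so genes were counted at 2-fold alone. The study's methods give that fold as the threshold, and its results name a corrected p-value beside it. The list rule, the 59 gene lists and the other choices were made with earlier results of these data known.

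Gene symbols came from RefSeq annotation of assembly GRCz12tu through unversioned accessions, which matched 13553 of 28397 accessions. Provisional names, with a colon or a LOC number, counted as no symbol. Of the genes that entered, 12865 carry a name of any kind. No sequences or coordinates were used here. Named genes were the 15 largest differences in each direction and the 5 largest bounds in each direction among genes with a symbol, up to 10 in each direction whose probes all passed 2-fold, per list up to 4 members past 2-fold and up to 3 of central role, and the genes that the study measured by qRT-PCR or discussed for lipids. Beside those said so in the text, hmox1b, dgat2, prss1, fabp2, mylpfa and krt4 fell outside this rule and were chosen after their values were seen. Scripts ran in Python 3.11.15 with numpy 2.4.6 and pandas 2.3.3 and in R 4.3.3 with limma 3.58.1, and were tested on simulated data. Alternatives were another scaling, background correction, filter, probe rule and fold. A result on 1 item withheld for evaluation is not reported here.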

Additional observations from a re-analysis of the deposited data

How the results depend on the processing

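The counts at 2-fold, 1017 genes higher and 325 lower in BBR than in control, became 949 and 382 after quantile normalisation, 1048 and 310 after loess between the arrays, 917 and 384 after centring on the median, and 1016 and 326 from the authors' value table. Background correction by normexp on the median signal gave 589 and 144. With no filter on dim probes 1426 genes were higher and 515 lower, with every probe counted 1453 and 514, at 1.5-fold 2666 and 1714, and at 3-fold 353 and 61. The share of called genes that were higher in BBR stayed between 70.5% and 80.4% over the scalings and background corrections. The 15 called lists kept their side of the median of all genes in all 10 alternatives, but the shift fell short of 0.25 in 1 alternative each for DNA replication, apolipoproteins, heat shock proteins and the lysosome. With spots marked as outliers kept, ovch1 became 0.39 and slc25a14 0.20, both lower in BBR otherwise, and cyp2aa9 became 0.55 against 1.38. Of 1197 values that the alternatives gave for the 121 named genes past 2-fold, 2 reversed and 89 moved by more than the spread between probes. In at least 1 alternative 41 of the 121 genes fell short of 2-fold, 35 of them under normexp and 14 with the mean of a gene's probes. The cause of these changes was not tested. No paired analysis was possible because each group has 1 array. The single array in each group also leaves the spread between animals unmeasured, and dim probes near background set the limit for low genes.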
